A study of Mus musculus with 12 samples.

Results

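Gata4, Gata5 and Gata6, the GATA transcription factor genes of the heart, were followed through mouse heart development in dissected cardiogenic regions at 4 embryonic stages. They are the 3 intervals, of 48709 gene intervals counted, whose gene name equals one of these symbols, and all 3 passed the filter on low counts in the 28846 intervals tested. Embryos of days 8, 8.5, 9.5 and 14 (written E8 to E14) gave 3 libraries of total RNA at each stage, 12 in all. The labels give no strain, genotype, treatment or litter, and nothing says that libraries of a stage came from separate embryos, so the spread behind each p-value is that between these libraries and may be technical. The study's title is about a mesodermal long non-coding RNA, and its design text names the 4 stages of cardiac development as the comparison.

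GATA factors are zinc finger proteins that bind DNA at sites with the letters GATA and switch on genes of the tissue in which they are made. GATA4 is needed for the paired heart fields to join at the midline and later for myocardial growth, GATA6 acts in the outflow tract and in endoderm, and mice without Gata5 have aortic valve defects. The proteins overlap in function, since they recognise like sites and share partners such as NKX2-5, TBX5 and the FOG cofactors. The other 3 mouse GATA genes (Gata1, Gata2 and Gata3) are best known from blood and from neural and epithelial tissues.

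The promoters of Gata5, which changed most of the 3 genes, and of its antisense neighbour Gata5os, which moved with it, are shown. Gata4 had no matched entry in the promoter source, and the promoter of Gata6 was left out. Each runs over 300 bases, 250 before and 50 after the annotated start, 5′ to 3′ on the gene's own strand (RefSeq, GRCm38.p6, chr2:180334630-180334929 on the minus strand for Gata5 and chr2:180332607-180332906 on the plus strand for Gata5os). Capitals mark matches, on either strand, to GATA, to the E-box CANNTG, to the GC box GGGCGG and to the TATA box TATAAA, as found by a letter search.
Gata5: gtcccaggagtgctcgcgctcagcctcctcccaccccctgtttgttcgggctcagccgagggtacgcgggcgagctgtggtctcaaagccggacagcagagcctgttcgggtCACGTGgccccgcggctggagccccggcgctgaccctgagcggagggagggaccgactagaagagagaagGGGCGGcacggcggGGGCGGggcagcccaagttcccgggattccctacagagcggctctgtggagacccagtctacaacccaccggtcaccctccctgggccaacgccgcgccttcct
Gata5os: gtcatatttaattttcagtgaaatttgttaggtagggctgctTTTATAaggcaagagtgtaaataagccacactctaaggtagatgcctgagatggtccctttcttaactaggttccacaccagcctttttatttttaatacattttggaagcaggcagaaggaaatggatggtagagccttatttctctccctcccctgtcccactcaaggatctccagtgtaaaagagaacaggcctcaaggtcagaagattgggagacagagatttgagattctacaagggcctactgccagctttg
The Gata5 window held 1 E-box and 2 GC boxes, no GATA and no TATA box, and 69.7% of its bases were G or C. The Gata5os window held 1 TATA box match, on the strand opposite to the transcript, and none of the other motifs, with 42.7% G or C. Among 32851 RefSeq promoter windows of the same length, 57.9% held GATA, 72.3% an E-box, 35.7% a GC box and 13.6% the TATA letters, and the median G or C content was 52.7%. No match overlapped another.

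In the deposited table (GRCm38 coordinates) Gata4 lies on the minus strand of chromosome 14 from 63198922 to 63271692, Gata5 on the minus strand of chromosome 2 from 180325133 to 180334699, and Gata6 on the plus strand of chromosome 18 from 11052510 to 11085635. All 3 are protein coding in the GENCODE annotation, with 3904, 3277 and 6508 exonic bases for Gata4, Gata5 and Gata6. 

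Total counts ran from 56574386 to 122785175 per library, and Gata4 had 8596 to 35719 counts, Gata5 335 to 11574 and Gata6 5437 to 11501. The 12 cardiomyocyte markers (Tnnt2, Myh6, Ttn and others) summed to 18960 to 29220 CPM (counts scaled to a fixed library total with TMM factors) and none was at 0 in any library. E8.5 replicate 3 stood apart. Its 10 visceral endoderm and liver markers (Afp, Apoa1, Ttr and others) summed to 1692 CPM, against 155 and 59.3 CPM in the other E8.5 libraries, and its 10 foregut endoderm markers to 404 CPM, against 175 and 195 CPM. Calls for Gata4, Gata5 and Gata6 and counts of list members that rest on E8.5 are therefore given with and without it. E9.5 replicate 1 also differed from the other libraries of its stage. Its 9 epicardial markers summed to 44.95 CPM, against 106 and 151, and its 7 erythroid markers to 3035 CPM, against 5846 and 7752. These are bulk samples, so fewer cells of a type and less RNA per cell cannot be told apart.

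Gata4 was measured at 197, 193 and 192 CPM in the E8 libraries, then 304, 303 and 191 CPM at E8.5, 258, 216 and 206 CPM at E9.5 and 163, 183 and 173 CPM at E14. The 3 E8 libraries lay close together, 2 of the 3 E8.5 libraries were higher than all others, and E8.5 replicate 3 lay at the level of E8. Stage means were 194 ± 2.38, 266 ± 64.9, 227 ± 27.8 and 173 ± 9.98 CPM (SD, n = 3 each), in the order E8, E8.5, E9.5 and E14. The level differed between the 4 stages in edgeR's quasi-likelihood F-test (F = 6.20, adjusted p = 0.0148), a test that 72.3% of all genes passed.

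In the edgeR fit with all libraries no single comparison of Gata4 passed the threshold of 0.05. E8.5 was higher than E8 by 0.46 ± 0.15 on the log2 scale (SE, edgeR adjusted p = 0.0911), a comparison in which 0.891% of all genes were called higher. E9.5 differed from E8.5 by -0.23 ± 0.15 (edgeR adjusted p = 0.257) and from E8 by 0.22 ± 0.15 (edgeR adjusted p = 0.323). E14 differed from E9.5 by -0.39 ± 0.15 (edgeR adjusted p = 0.0535) and from E8 by -0.16 ± 0.15 (edgeR adjusted p = 0.375). Ordered from E14 through E8 and E9.5 to E8.5, neighbouring levels did not differ beyond their spread in these tests. Without E8.5 replicate 3 the rise at E8.5 over E8 was 0.61 ± 0.10 (edgeR adjusted p = 0.00149), the fall at E9.5 against E8.5 was -0.39 ± 0.10 (edgeR adjusted p = 0.00606) and the fall at E14 against E9.5 was -0.42 (edgeR adjusted p = 0.00137). Without that library edgeR also called many more genes at E8.5 against E8, 4212 higher and 4653 lower, against 257 and 84 with all libraries. With all libraries DESeq2 called the fall at E14 against E9.5 (-0.41, adjusted p = 0.0249) and the rise at E8.5 over E8 (0.43, adjusted p = 0.0385). The CPM of the 3 E14 libraries lay below those of the 3 E9.5 libraries without overlap, as they did for 30.7% of all genes.

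Gata5 changed most of the 3 cardiac GATA genes. It was measured at 81.0, 87.8 and 84.2 CPM at E8, 98.4, 83.0 and 77.4 CPM at E8.5, 74.1, 54.0 and 51.4 CPM at E9.5 and 6.36, 7.30 and 6.50 CPM at E14. All 3 E14 libraries lay far below every earlier one, as they lay below E9.5 for 30.7% of all genes. Stage means were 84.3 ± 3.38, 86.2 ± 10.9, 59.9 ± 12.4 and 6.72 ± 0.509 CPM (SD, n = 3 each), in the order E8, E8.5, E9.5 and E14.

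At E14 Gata5 fell 8.89-fold against E9.5, by -3.15 ± 0.15 on the log2 scale (edgeR adjusted p = 2.25e-08). It was 1 of the 3 cardiac GATA genes called lower in that comparison, in which 24.6% of all genes tested were called lower, and 1.21% of the genes tested had a lower log2 fold change. Against E8 the fall at E14 was 12.5-fold (-3.65 ± 0.15, edgeR adjusted p = 4.34e-09), where 29.2% of all genes were called lower. A smaller fall was already called at E9.5 against E8.5 (-0.53 ± 0.13, edgeR adjusted p = 0.00932, with 18.5% of all genes called lower) and held without E8.5 replicate 3 (as with each other library left out), but was lost when only the E8.5 and E9.5 libraries were fitted (-0.50, edgeR adjusted p = 0.0653). At E9.5 against E8 the difference was -0.49 ± 0.13 (edgeR adjusted p = 0.0173, with 11.3% of all genes called lower), and this call was lost when E8 replicate 2, E8 replicate 3, E9.5 replicate 2 or E9.5 replicate 3 was left out, with edgeR adjusted p up to 0.0802. E8.5 did not differ detectably from E8 (0.03 ± 0.13, edgeR adjusted p = 0.895), where 1.18% of all genes were called in either direction. Over the 4 stages the test gave F = 222 (edgeR adjusted p = 1.22e-08).

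Gata6 was measured at 82.5, 79.7 and 81.3 CPM at E8, 97.7, 89.8 and 79.9 CPM at E8.5, 102, 86.4 and 88.6 CPM at E9.5 and 103, 111 and 106 CPM at E14. The E14 libraries lay above every earlier library, as they did above E9.5 for 32.3% of all genes, and the lowest of them was close to E9.5 replicate 1. Stage means were 81.2 ± 1.40, 89.1 ± 8.94, 92.3 ± 8.36 and 107 ± 4.07 CPM (SD, n = 3 each), in the order E8, E8.5, E9.5 and E14. E14 was 1.32-fold higher than E8 (0.40 ± 0.09, edgeR adjusted p = 0.00188), a call that 31.5% of all genes shared in that direction. The steps between were smaller and none passed the test: 0.13 ± 0.09 at E8.5 against E8, 0.05 ± 0.09 at E9.5 against E8.5 and 0.21 ± 0.09 at E14 against E9.5 (edgeR adjusted p = 0.335, 0.683 and 0.0610). Without E8.5 replicate 3 the value at E8.5 against E8 was 0.17 for Gata6 and 0.07 for Gata5, and neither was called by edgeR. The test thus separated the first stage of Gata6 from the last, and no neighbouring stages. The step at E14 against E9.5 passed without E8.5 replicate 1 (0.21, edgeR adjusted p = 0.0464) or without E9.5 replicate 1 (0.29, edgeR adjusted p = 0.0235). Over the 4 stages the level differed (F = 7.22, edgeR adjusted p = 0.00931), a call lost without E14 replicate 2 (edgeR adjusted p = 0.0602).

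**Figure D1:**
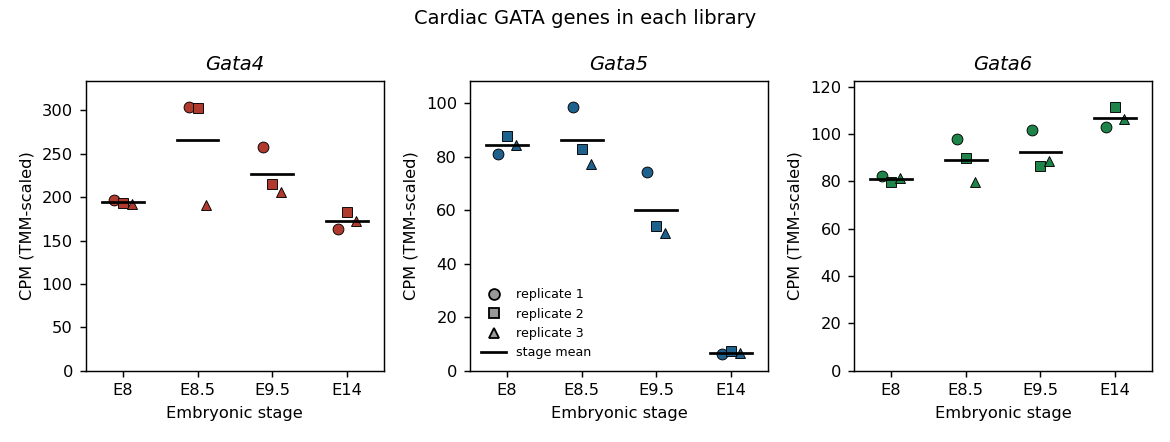
TMM-scaled CPM (vertical axes, from 0) of Gata4, Gata5 and Gata6 in each of the 12 libraries by embryonic stage, with marker shapes for replicate numbers and bars for stage means. Gata5 sits at 51.4 CPM or above in every library up to E9.5 and at 7.30 CPM or below at E14, Gata4 is highest in E8.5 replicates 1 and 2, and Gata6 is highest at E14.

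**Figure D2:**
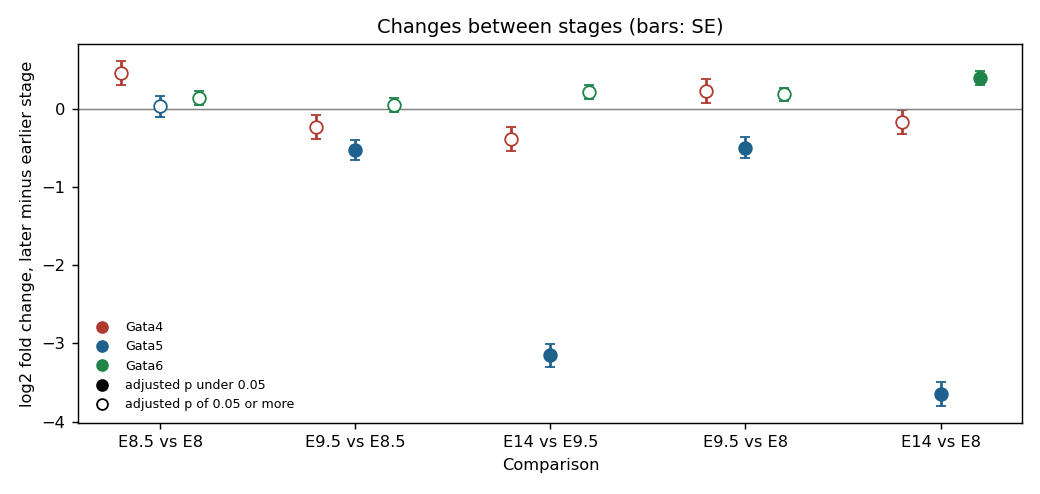
Log2 fold changes (vertical axis, later minus earlier stage, bars for SE) of the 3 genes in 5 comparisons, filled where the edgeR adjusted p was under 0.05. The points for Gata5 at E14 lie at -3.15 against E9.5 and -3.65 against E8, and every other point lies between -0.53 and 0.46.

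The proportions of the 3 transcripts within a library need no library size, so the ratios of their counts were tested over the stages by exact permutation of the 12 libraries over all 369600 assignments to stages. All 3 ratios differed between stages. The log2 ratio of Gata4 to Gata6 counts averaged 1.26 ± 0.02, 1.55 ± 0.26, 1.29 ± 0.07 and 0.69 ± 0.03 from E8 through to E14 (SD, n = 3 each, exact permutation p = 0.00234, adjusted over the 3 ratios 0.00234). Gata6 thus gained on Gata4 at E14, where all 3 ratios lay below the lowest earlier value. The log2 ratio of Gata5 to Gata4 counts averaged -1.20 ± 0.07, -1.60 ± 0.28, -1.93 ± 0.12 and -4.69 ± 0.04 over the same stages (exact permutation p = 0.000195, adjusted 0.000292). That of Gata5 to Gata6 averaged 0.05 ± 0.08, -0.05 ± 0.06, -0.64 ± 0.17 and -3.99 ± 0.06 (exact permutation p = 0.000130, adjusted 0.000292). The smallest p that these permutations can give is 6.49e-05. Leaving out any 1 library kept every ratio's adjusted exact permutation p at 0.00377 or below.

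**Figure D3:**
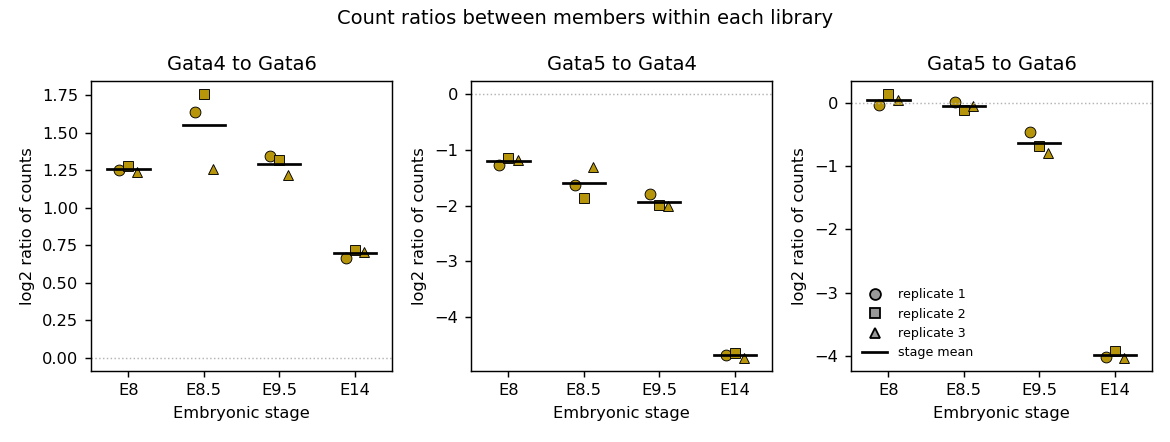
Log2 ratios of raw counts (vertical axes) between pairs of the 3 genes in each library by stage, with bars for stage means. The E14 ratios of Gata5 lie near -4.69 to Gata4 and -3.99 to Gata6, apart from all earlier libraries, and E8.5 replicate 3 lies nearer to the E8 libraries than the other E8.5 libraries do in the ratios that include Gata4.

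Per kilobase of annotated exons, Gata4 was the most abundant of the 3 at every stage. It held 56.5% ± 0.777, 62.5% ± 4.45, 64.2% ± 0.854 and 70.6% ± 0.404 of the summed level per exon kilobase at E8, E8.5, E9.5 and E14 (SD, n = 3 each). The share of Gata5 was 29.3% ± 1.05, 24.6% ± 3.06, 20.1% ± 1.42 and 3.26% ± 0.0950, and that of Gata6 14.2% ± 0.321, 12.8% ± 1.46, 15.7% ± 0.808 and 26.2% ± 0.404. At E8.5 the share of Gata4 was 57.7% in replicate 3, against 63.3% and 66.5% in the other libraries. The place of Gata4 rests on the length used, since counts may hold intronic reads and the gene intervals differ more in length (72771, 9567 and 33126 bases for Gata4, Gata5 and Gata6) than their exons do. Per kilobase of gene interval, Gata5 held 63.2% at E8 and 11.1% at E14, Gata4 19.1% and 37.7%, and Gata6 17.6% and 51.2%. On both scales Gata5 held more than Gata6 up to E9.5 and less at E14, and the share of Gata5 was lowest, and those of Gata4 and Gata6 highest, at E14. A higher share is not a higher level. The mean of Gata4 was 44.35 CPM per exon kilobase at E14 and 49.69 at E8.

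Gata5os, an antisense transcript on the plus strand of chromosome 2 from 180332857 to 180340732, overlaps the 5′ end of Gata5 by 1843 bases, of which 258 are exonic in both. It was measured at 22.1, 25.2 and 24.4 CPM at E8, 23.6, 22.0 and 22.8 CPM at E8.5, 18.6, 13.3 and 13.6 CPM at E9.5 and 1.75, 1.86 and 1.73 CPM at E14. As for Gata5, all 3 E14 libraries lay below every earlier one, where 30.7% of all genes lay below E9.5 without overlap. It fell at E14 against E9.5 by -3.09 on the log2 scale (edgeR adjusted p = 1.24e-08) and at E9.5 against E8.5 by -0.59 (edgeR adjusted p = 0.00238, and -0.56, adjusted p = 0.00423, without E8.5 replicate 3). The strand setting of the counting is not given in the sources used here, so reads of the overlap cannot be assigned to one of the transcripts. With all Gata5os counts subtracted from those of Gata5, the log2 fold change of Gata5 was -3.17 at E14 against E9.5. At E9.5 against E8.5 it was -0.505.

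Foregut endoderm, a tissue next to the early heart that also uses GATA factors, was examined through 10 markers. At E14 against E9.5, where Gata5 fell, 8 of them were called lower and 1 (Sox17) higher, with 24.6% of all genes called lower and 25.4% higher. Their summed level was 16.0, 13.8 and 13.8 CPM at E14, against 140, 106 and 109 CPM at E9.5. The keratin genes Krt8 and Krt18 made up 69% of the mean sum at E14 and 93.2% at E9.5, and the other 8 markers together averaged 4.50 CPM at E14 and 8.08 CPM at E9.5. Among these 8, Foxa2 was at 0.0143 CPM at E14 and 0.289 CPM at E9.5. Up to 3 of the 10 markers were at 0 in an E14 library. At E9.5 against E8.5 all 10 were called lower, and 9 of 10 without E8.5 replicate 3, where 18.5% and 20.4% of all genes were called lower. E8.5 replicate 3 had the highest foregut sum of the E8.5 libraries (404 CPM). At E8.5 the keratin genes made up 86.5% of the mean sum. That replicate also had visceral endoderm and liver markers at 1692 CPM, so its foregut sum may not measure foregut alone. Of the 9 markers of endothelium and endocardium, where Gata5 is also known to be expressed, 7 were called higher at E14 against E9.5 and none lower, with 25.4% of all genes called higher, and their summed levels were 916 to 960 CPM at E14 and 544 to 611 CPM at E9.5. The 8 fibroblast and valve mesenchyme markers summed to 2203 to 2264 CPM at E14, against 274 to 453 CPM at E9.5. The part of these tissues in the result for Gata5 was not tested.

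**Figure D4:**
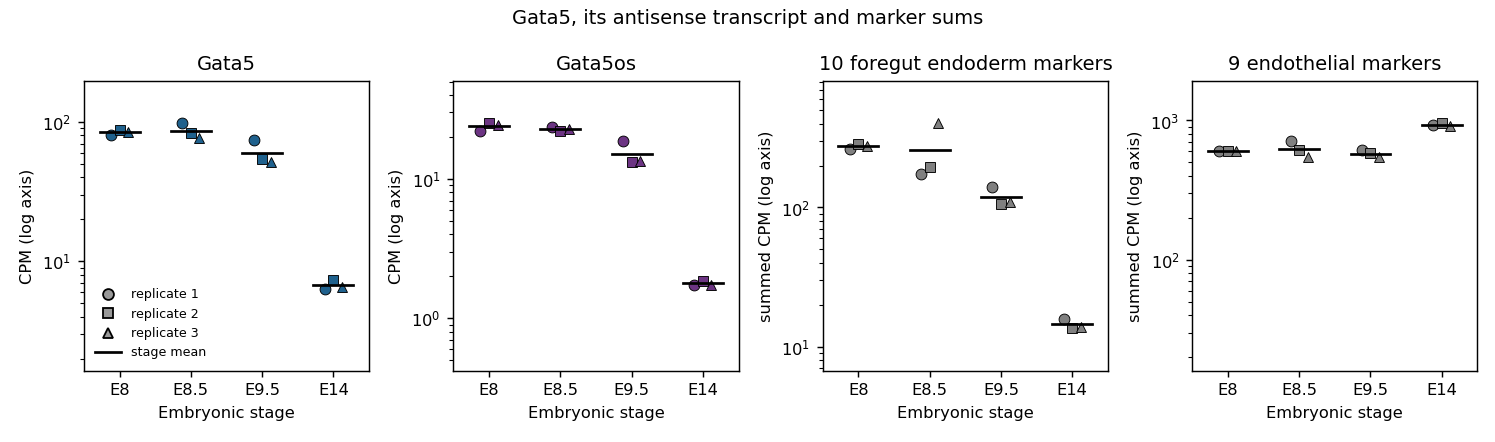
Gata5, Gata5os and the summed levels of 10 foregut endoderm and 9 endothelial and endocardial markers in each library (CPM, log axes that span the same fold range) by stage, with bars for stage means. Gata5, Gata5os and the foregut markers are lowest at E14 (6.72, 1.78 and 13.8 to 16.0 CPM), and the endothelial markers are highest there (916 to 960 CPM). Krt8 and Krt18 made up 93.2% of the mean foregut sum at E9.5 and 69% at E14. The other 8 foregut markers together averaged 8.08 CPM at E9.5 and 4.50 CPM at E14.

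Gata6 also has a head-to-head antisense neighbour, 1010001N08Rik (Gata6os in RefSeq), on the minus strand of chromosome 18 from 11049087 to 11052567, which overlaps it by 58 bases. It averaged 7.71 ± 0.232, 7.97 ± 1.67, 7.21 ± 0.496 and 6.84 ± 0.638 CPM over the 4 stages (SD, n = 3 each) and was called in none of the 5 comparisons by edgeR (at E14 against E8 -0.17, adjusted p = 0.286). Of the other 8 genes that start within 100 kb of Gata5, 5 were called lower and none higher at E14 against E9.5, where 24.6% of all genes were called lower. Lama5, a laminin chain gene, fell by -0.39 (43.1 against 56.6 CPM, edgeR adjusted p = 0.00400), Cables2 by -0.55 (13.9 against 20.4 CPM, edgeR adjusted p = 4.84e-05) and the long non-coding RNA B230312C02Rik by -1.35 (1.12 against 2.88 CPM, edgeR adjusted p = 0.00282). Mir3091, whose interval lies inside that of Rps21 on the same strand and shares its reads, fell by -0.36 (edgeR adjusted p = 0.0294). That call was lost without E9.5 replicate 2 or 3 or any single E14 library, and Rps21 was not called (-0.27, edgeR adjusted p = 0.0992). Rbbp8nl, also called lower (edgeR adjusted p = 0.000134), had 0, 1 and 2 counts in the E14 libraries, against 16, 16 and 15 in the E9.5 libraries. Near Gata4, Neil2, a DNA repair glycosylase gene, fell by -1.20 (1.5 against 3.48 CPM, edgeR adjusted p = 0.00163), Fdft1, which encodes squalene synthase, fell by -0.93 (32.7 against 62.3 CPM, edgeR adjusted p = 2.06e-05) and the cathepsin gene Ctsb did not pass (0.30, edgeR adjusted p = 0.185).

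The other GATA genes were present at lower counts. Gata1, the erythroid factor, averaged 1.80 ± 0.153, 3.31 ± 0.394, 7.57 ± 2.45 and 0.695 ± 0.243 CPM at E8, E8.5, E9.5 and E14 (SD, n = 3 each). It rose at E9.5 against E8.5 by 1.20 (edgeR adjusted p = 0.00408, and by 1.25, adjusted p = 0.00540, without E8.5 replicate 3) and fell at E14 against E9.5 by -3.47 (edgeR adjusted p = 1.72e-06). Of 7 erythroid markers 4 were called lower and 2 higher at E14 against E9.5, with 24.6% and 25.4% of all genes, and their summed level was 7867 to 26140 CPM at E14 and 3035 to 7752 CPM at E9.5. Their part in the result for Gata1 was not tested. Gata2, a factor of blood progenitors and endothelium, fell at E14 against E9.5 by -0.74 (5.50 ± 0.394 against 9.22 ± 2.09 CPM, edgeR adjusted p = 0.00244). Gata3, a factor of T cells and of several epithelia, fell at the same step by -2.03 (1.39 ± 0.0956 against 5.69 ± 0.596 CPM, edgeR adjusted p = 1.07e-07). Gata3 may share reads with an overlapping transcript on the same strand that has 0.251 times its counts.

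GATA proteins act with partners, and 19 genes for described partners were examined, all of which passed the filter. At E14 against E9.5, 3 were called higher and 8 lower, with a median log2 fold change of -0.26, against 25.4% higher, 24.6% lower and a median of 0.01 over all genes tested. Among the FOG cofactors, which bind the amino-terminal zinc finger of GATA proteins, Zfpm2 (FOG2, the cofactor of GATA4 in heart) rose by 1.26 ± 0.21 (469 ± 87.6 CPM at E14, against 195 ± 32.0 CPM at E9.5, SD, n = 3 each, edgeR adjusted p = 0.000383). Zfpm1 (FOG1, best known as the cofactor of GATA1) fell by -1.62 ± 0.17 (22.7 against 70.2 CPM, edgeR adjusted p = 9.09e-06), but an interval on the same strand with 46.7 times its counts overlaps it. Lmcd1, whose product restrains DNA binding by GATA6, rose by 2.74 (33.9 against 5.07 CPM, edgeR adjusted p = 1.37e-06), and Hopx, which encodes a homeodomain protein that binds no DNA, rose by 0.95 (edgeR adjusted p = 7.76e-05).

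Of the other transcription factors among the partners, Nkx2-5 fell by -1.32 ± 0.13 (28.9 against 72.4 CPM, edgeR adjusted p = 4.66e-06), Tbx5 by -0.97 ± 0.19 (36.4 against 71.0 CPM, edgeR adjusted p = 0.00132) and Isl1, a gene of second heart field progenitors, by -2.68 (1.42 against 9.10 CPM, edgeR adjusted p = 1.62e-07) at E14 against E9.5. Hand2 fell by -0.56 ± 0.09 (32.5 against 48.0 CPM, edgeR adjusted p = 0.000215), with an antisense interval of 0.923 times its counts. Tbx20 (0.29 ± 0.13, edgeR adjusted p = 0.0790) and Mef2c (-0.26 ± 0.14, edgeR adjusted p = 0.134) did not pass, and neither did Srf, Nfatc1 or Klf13. Smarcd3 (-0.85, edgeR adjusted p = 3.42e-05) and Smarca4 (-0.62, edgeR adjusted p = 2.06e-05) were also called lower. Smarcd3 and Srf may share reads with opposite-strand intervals that overlap them, the largest with 0.627 and 5.68 times their counts. The calls of partner genes named so far for this comparison held with each library left out in turn. Nfatc4 was called lower but lost the call without E8 replicate 3, E9.5 replicate 2 or 3, or E14 replicate 1 or 2 (edgeR adjusted p up to 0.173).

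At E8.5 against E8 the 1 call was Isl1 (-0.79, edgeR adjusted p = 0.0418, with 0.291% of all genes called lower), lost with 9 of the 12 libraries left out in turn (edgeR adjusted p up to 0.217). Without E8.5 replicate 3, 8 partners were called higher and 4 lower, with 14.2% and 15.7% of all genes. At E9.5 against E8.5, 2 were called higher and 7 lower, with 18.4% and 18.5% of all genes called in these directions, and 2 and 9 without E8.5 replicate 3, with 23.5% and 20.4% of all genes. Mef2c fell by -0.77 (213 against 364 CPM, edgeR adjusted p = 0.00160) and Hand2 rose by 0.38 (edgeR adjusted p = 0.00589), both with each library left out in turn. Tbx20 (-0.44, edgeR adjusted p = 0.0196) and Zfpm2 (-0.67, edgeR adjusted p = 0.0251) lost their calls without E8.5 replicate 1 or 2 or E9.5 replicate 2 or 3. At E14 against E8, 3 were called higher and 11 lower, with 31.5% and 29.2% of all genes.

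**Figure D5:**
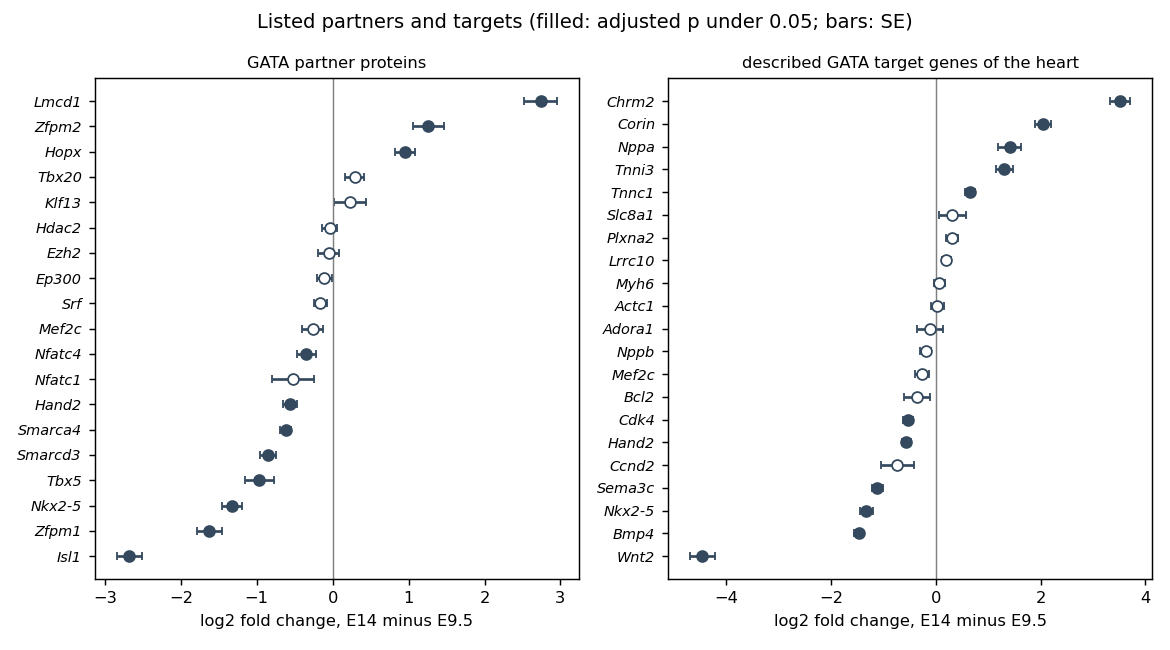
Log2 fold changes at E14 against E9.5 (horizontal axes, bars for SE) of 19 GATA partner genes (left) and 21 described GATA target genes of the heart (right), filled where the edgeR adjusted p was under 0.05. Lmcd1 at 2.74 and Isl1 at -2.68 bound the partners, and Chrm2 at 3.52 and Wnt2 at -4.46 bound the targets.

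Of 21 genes described as direct targets of GATA factors in heart, all tested, 5 were called higher and 6 lower at E14 against E9.5 (median -0.11), shares near those of all genes (25.4% and 24.6%). The higher ones were Chrm2, the muscarinic receptor of heart muscle (3.52, 70.8 against 6.18 CPM), Corin, the protease that processes atrial natriuretic peptide (2.04, 86.2 against 20.9 CPM), Nppa, which encodes that peptide (1.41, 795 against 300.0 CPM), and the troponin genes Tnni3 (1.31) and Tnnc1 (0.64), with edgeR adjusted p of 0.000192 or below. Corin, Nppa and Tnnc1 may share reads with opposite-strand intervals that overlap them, the largest with 0.328, 0.792 and 1.75 times their counts. The lower ones included Wnt2, a Wnt ligand described as a GATA6 target (-4.46, 1.95 ± 0.423 against 42.3 ± 14.3 CPM, SD, n = 3 each, edgeR adjusted p = 9.78e-08), Bmp4 (-1.47, edgeR adjusted p = 1.16e-07) and Sema3c, a guidance cue of the outflow tract also described as a GATA6 target (-1.12, edgeR adjusted p = 4.84e-06). Cdk4, a cell cycle kinase gene described as a GATA4 target, fell by -0.53 (edgeR adjusted p = 0.000885), and the others of the 6 were Nkx2-5 and Hand2. At E9.5 against E8.5, 7 were called higher and 2 lower, with 18.4% and 18.5% of all genes, and 8 and 4 without E8.5 replicate 3, with 23.5% and 20.4% of all genes. The rises of Nppa (1.36, edgeR adjusted p = 0.000763) and Tnni3 (1.32, edgeR adjusted p = 0.000177) held with each library left out in turn. None was called at E8.5 against E8, where edgeR called 1.18% of all genes, and 7 were called higher and 2 lower without E8.5 replicate 3, with 14.2% and 15.7% of all genes.

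BMP signals from endoderm and mesoderm act upstream of cardiac GATA genes, and 10 genes of this pathway and Foxf1, a mesodermal factor next to gut endoderm, were examined. Of these 11, 5 were called lower and 3 higher at E14 against E9.5, with 24.6% and 25.4% of all genes. Bmp2 fell by -2.37 (3.43 against 17.8 CPM, edgeR adjusted p = 3.16e-06), Bmp5 by -2.13 (12.6 against 55.1 CPM, edgeR adjusted p = 6.22e-08) and Bmp7 by -0.45 (edgeR adjusted p = 0.00783), beside Bmp4 above. Foxf1 fell by -3.20 (0.149 against 1.35 CPM, edgeR adjusted p = 0.00106), but an interval on the same strand with 1390 times its counts covers it. The receptor gene Bmpr2 (0.76, edgeR adjusted p = 0.000334) and the signal carriers Smad5 (0.60, edgeR adjusted p = 9.46e-06) and Smad1 (0.43, edgeR adjusted p = 0.00121) rose. The median over the 11 genes was -0.00285, beside 0.01 over all genes.

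Among 10647 genes with a symbol and a mean of at least 5 CPM, the genes whose course over the 12 libraries was most like that of each member were found by the root mean square difference of centred log2 CPM. For Gata5 these were Gata5os (0.0902), Fignl2 (0.180), Hmga2 (0.195), Atp7b (0.217) and Bcat1 (0.217). The median over all 10647 genes was 1.53. Gata5os overlaps Gata5 and may share its reads. For Gata4 the most like genes were Ywhag (0.0811), Nol4l (0.0877), Zbtb46 (0.0973), Dlg5 (0.0980) and Tspan9 (0.0982), with a median of 0.379, and 3 of these 5 were among the nearest 5 without E8.5 replicate 3. For Gata6 they were Mgrn1 (0.0667), Ccdc53 (0.0725), Abhd17c (0.0729), Sh3bp5 (0.0732) and Mfn1 (0.0783), with a median of 0.321, all 5 also without E8.5 replicate 3. Small differences were common for Gata4 and Gata6, whose levels varied little. Among the members themselves the difference was 0.331 for Gata4 and Gata6, 1.38 for Gata4 and Gata5 and 1.66 for Gata5 and Gata6.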

How the data were processed

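Total RNA of dissected cardiogenic regions was sequenced in 12 libraries, 3 at each of 4 stages. Per the labels' protocols, tissue went into TriZol and a standard Illumina preparation followed. The submitters' processing notes name STAR 2.5.0, Cufflinks 2.2.1 and the builds GRCm38, mm10 and hg38 without roles. No source used here gives the counting tool, its strand setting or its annotation. The deposited table holds whole-number counts per gene interval, not normalised by the authors.

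From these counts, edgeR 4.0.16 (R 4.3.3) with filterByExpr, TMM factors (0.913 to 1.07) and 1 robust quasi-likelihood fit over all 12 libraries compared the stages. The later stage is always the numerator, SE are those of the log2 fold changes, and calls needed a Benjamini-Hochberg adjusted p under 0.05 over 28846 genes. CPM use TMM-scaled totals. Library totals, by stage from E8 on, were 101231014 to 122785175, 101202593 to 111404849, 73056001 to 90620692 and 56574386 to 97187372 counts. Counting noise did not account for the differences between replicates (chi-square per gene 8.46 to 203). Gene types and exon lengths came from GENCODE M21 (GRCm38), with 42778 intervals matched exactly, 5649 by symbol and 282 not matched. Promoters came from RefSeq GRCm38.p6, matched by symbol. Count ratios (0.5 added) used two-sided exact permutation. The fit was tested on simulated counts.

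The members, gene lists and named genes were chosen with earlier results of these data known. The naming rule took all members, the other GATA genes, genes within 100 kb of a member, 8 fixed partners and up to 6 called genes per list and comparison, and the 5 genes most like each member. Several genes named at E14 against E9.5 fall outside it and were named after their values were seen. These are Hopx, Nfatc4, Smarcd3, Smarca4, Srf, Nfatc1, Klf13, Tnni3, Tnnc1, Sema3c, Cdk4, Bmp7 and Smad1. Alternatives were RLE and upper-quartile factors, other filters, a replicate block, gene-span offsets, small RNA and globin genes left out, fits of 2 stages, DESeq2 1.42.0, another length or pseudocount and each library left out. Python 3.11, pandas 2.3.3, limma 3.58.1 and matplotlib 3.10.9 were also used.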

Additional observations from a re-analysis of the deposited data

How the results depend on the processing

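Among the members' results, 238 of those with 1 library left out and 160 under the other alternatives kept their direction and side of the threshold. Of the rest, 7 gained a call, 5 lost one and 2 reversed with a library left out, and 10 gained and 1 lost a call elsewhere. Gata4 at E14 against E9.5 passed under RLE factors (-0.402, edgeR adjusted p = 0.0441), with no filter on low counts (-0.415, 0.0349), with small structural RNA and globin genes left out (-0.405, 0.0392), with offsets adjusted for gene span (-0.576, 0.00199), in a fit of the compared stages alone (-0.415, 0.0082) and in DESeq2 (-0.409, 0.0249). Gata4 at E14 against E8 passed with gene-span offsets (-0.317, edgeR adjusted p = 0.0413) and with the compared stages alone (-0.196, 0.0152), and at E8.5 against E8 in DESeq2 (0.433, 0.0385). Gata5 at E9.5 against E8.5 lost its call with the compared stages alone (-0.502, edgeR adjusted p = 0.0653). The cause was not tested.

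Replicate numbers did not pair the libraries: same-numbered deviations correlated at -0.0836 to 0.134, over 0.1 in 1 of 18 pairs, and 4 of 12 libraries correlated best with their own number. With the replicate block Gata4 at E14 against E9.5 passed (-0.379, edgeR adjusted p = 0.0487), no other member's call changed, and 2 genes were called higher and 1 lower at E8.5 against E8.

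With each library left out in turn, the log2 fold change of Gata4 ranged from 0.347 to 0.612 at E8.5 against E8, from -0.392 to -0.125 at E9.5 against E8.5 and from -0.46 to -0.287 at E14 against E9.5. Gata5 ranged from -0.0748 to 0.071 at E8.5 against E8, reversed without E8.5 replicate 1, and from -0.679 to -0.397 at E9.5 against E8. Gata6 ranged from -0.0272 to 0.121 at E9.5 against E8.5, reversed without E9.5 replicate 1, and from 0.153 to 0.286 at E14 against E9.5, and its adjusted p over the 4 stages from 0.00519 to 0.0602.

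The count of all genes called at E8.5 against E8 (257 higher, 84 lower) moved most. It was 146 and 44 with no filter, 903 and 661 with a filter of 1 CPM in 3 libraries, 709 and 485 without small structural RNA and globin genes, 69 and 49 with gene-span offsets, 3 and 6 with the compared stages alone, 2323 and 1933 in DESeq2, and 0 to 4212 and 0 to 4653 with 1 library left out. With the compared stages alone, E9.5 against E8.5 had 3353 higher and 2746 lower calls in place of 5316 and 5343, and E9.5 against E8 4928 lower in place of 3250. With 1 library left out, lower calls at E9.5 against E8.5 reached as few as 3366, and calls at E9.5 against E8 2470 higher, in place of 3913, and 2138 lower. Gata4, Gata5 and Gata6 had at least 335 counts in every library, so depth limits their values little.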
